A study of Homo sapiens with 6 samples.

Results

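The data describe 12 genes from families of enzymes that modify drugs and other foreign compounds, in UM-Cis and UMSCC1 cells. Not every member acts on such compounds. They are *AADAC*, the carboxylesterase genes *CES1*, *CES4A* and *CES5A*, the flavin-containing monooxygenase genes *FMO1*, *FMO2*, *FMO4* and *FMO5*, *ALDH2*, *UGT8* and the N-acetyltransferase genes *NAT1* and *NAT2*. Members were chosen by gene symbol (the symbol *AADAC*, or the symbol patterns of the CYP, AKR, ALDH, UGT, SULT, CES, NAT and FMO families). Symbols alone decided membership, but the rule was set with earlier results of these data known. The patterns matched 16 symbols, of which 3 pseudogenes (*CES1P1*, *CES1P2*, *CES5AP1*) and the non-coding *ALDH1L1-AS2* were set aside, which left 12 of the 14812 genes measured. In the platform annotation used, the patterns matched no symbol of the cytochrome P450s, aldo-keto reductases or sulfotransferases, and these families, with most aldehyde dehydrogenases and glucuronosyltransferases, were not analysed here. A gene is called measured where a probe set carried its symbol in that annotation. Another 28794 probe sets carried no symbol here, so a gene that is not called measured may still be on the array.

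UM-Cis cells were raised from UMSCC1, an established line of oral squamous cell carcinoma (OSCC), by culture for about 12 months in cisplatin that was stepped up from 1 to 5 μg/mL. UMSCC1 cells are the parental line without that selection. Both lines grew in the same medium without cisplatin before total RNA was taken, and RNA of each line was read on 3 arrays of the Affymetrix Human Gene 2.0 ST type, labelled as an array without a number, array 1 and array 2. Separate cultures for the 3 arrays of a line are not stated, so a p-value here reflects no more than the scatter among these arrays, which may be technical. UM-Cis is 1 selected line. The methods also describe parental cells kept alongside in vehicle (DMSO in PBS) as a control during the selection, and the labels do not say whether the UMSCC1 arrays came from those cells, so it is not known whether time in culture was matched.

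Enzymes of drug metabolism work in stages. Oxidases, such as the flavin-containing monooxygenases, and hydrolases, such as the carboxylesterases and arylacetamide deacetylase, expose or add a reactive group, and transferases then attach acetyl, sugar or sulfate groups that change how soluble the compound is. Most of these enzymes are best known from liver, gut, kidney or lung, and some are also made in squamous epithelium. Cisplatin, a platinum complex, reacts with water and with thiols such as glutathione and is not a typical substrate of these enzymes.

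Of the 12 genes, *AADAC* (4.02-fold) and *FMO4* (3.53-fold) were higher in UM-Cis, and *UGT8* was lower in UM-Cis (2.77-fold higher in UMSCC1). These 3 passed limma's test at a Benjamini-Hochberg adjusted p under 0.05 over all genes. The other 9 did not pass, among them *CES4A* and *NAT2*, which were at least 2-fold higher in UM-Cis with an unadjusted p under 0.05. Thus 2 of 12 genes were called higher, where 5.91% of all genes were, and 1 was called lower, where 4.60% of all genes were. By the 2-fold criterion 4 of 12 were higher (2.44% of all genes) and 1 was lower (1.70% of all genes). The 3 UM-Cis arrays lay above all UMSCC1 arrays for 3 of the 12 genes (14.7% of all genes) and below them for 2 (15.7% of all genes). With 12 genes, each of these counts rests on a few members. The median log2 difference, UM-Cis minus UMSCC1, was -0.140 over the 12 genes and -0.036 over all genes, and the median absolute difference was 0.419 against 0.210. The arrays of a line also scattered more for the 12 genes (median residual SD 0.306 log2 units) than for all genes (0.200).

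**Figure D1:**
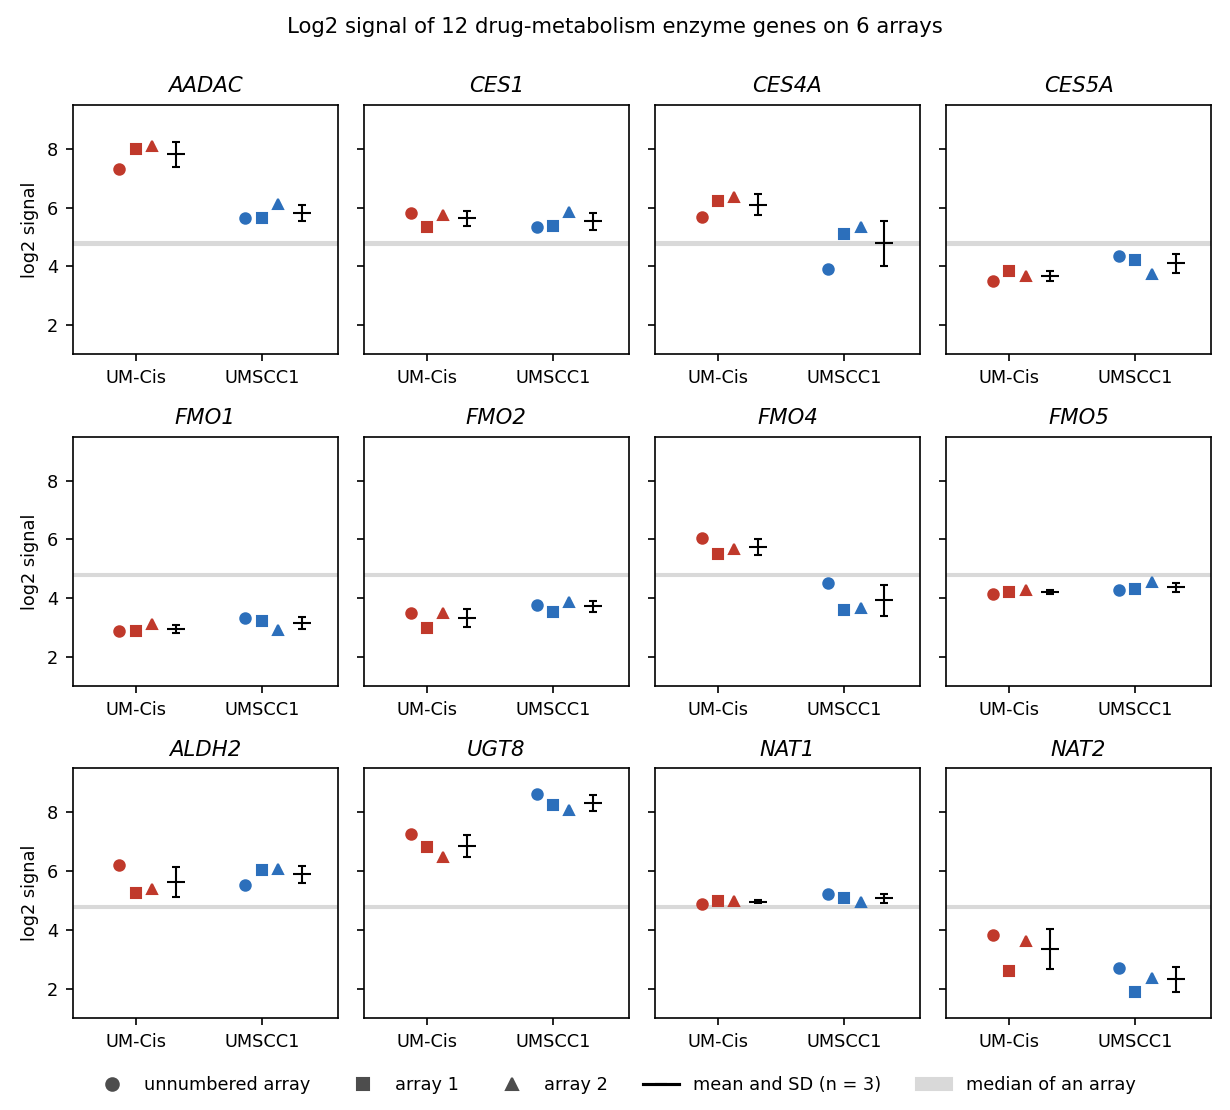
Log2 signal of the 12 enzyme genes on each array, UM-Cis left and UMSCC1 right in every panel. The mean and SD of the 3 arrays stand beside the points, and a grey band marks the array medians over all probe sets. The UM-Cis points lie above all UMSCC1 points for *AADAC*, *CES4A* and *FMO4* and below them for *UGT8* and *FMO2*.

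The 4 largest differences belonged to *AADAC*, *FMO4*, *UGT8* and *CES4A*, and the sequence in front of their start sites shows what letters these genes carry there. Windows at RefSeq start sites of GRCh38.p14 were used for 7 of the 12 genes, 12 windows in all. Any windows of *NAT1* and *NAT2* were left out, while the shares over all windows include their chromosome. The 250 bases before the start were searched on both strands for 2 short motifs. These were TGACNNNGC, the core bound by NRF2 with small MAF proteins, and GCGTG, the core bound by the aryl hydrocarbon receptor with ARNT. Each window below is on the plus strand and ends at the base before the start, with motif letters in capitals. For *CES4A* and *UGT8*, which have more than 1 start site, the one that comes first along the chromosome is shown.
AADAC, chr3:151813866-151814115: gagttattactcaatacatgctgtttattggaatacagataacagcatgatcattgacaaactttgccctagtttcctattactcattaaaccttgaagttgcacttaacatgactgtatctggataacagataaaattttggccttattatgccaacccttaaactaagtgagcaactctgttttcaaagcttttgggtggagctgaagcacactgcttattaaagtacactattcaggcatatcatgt
FMO4, chr1:171313933-171314182: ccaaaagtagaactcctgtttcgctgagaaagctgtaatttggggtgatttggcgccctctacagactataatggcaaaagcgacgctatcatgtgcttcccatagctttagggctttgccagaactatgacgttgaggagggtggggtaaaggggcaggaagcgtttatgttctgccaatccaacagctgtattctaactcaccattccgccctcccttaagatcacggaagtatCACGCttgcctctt
UGT8, chr4:114598152-114598401: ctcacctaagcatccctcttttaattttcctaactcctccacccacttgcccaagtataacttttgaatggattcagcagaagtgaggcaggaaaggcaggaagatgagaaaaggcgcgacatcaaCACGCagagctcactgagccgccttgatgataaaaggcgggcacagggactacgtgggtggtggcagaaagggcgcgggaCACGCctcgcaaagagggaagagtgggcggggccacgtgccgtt
CES4A, chr16:66988339-66988588: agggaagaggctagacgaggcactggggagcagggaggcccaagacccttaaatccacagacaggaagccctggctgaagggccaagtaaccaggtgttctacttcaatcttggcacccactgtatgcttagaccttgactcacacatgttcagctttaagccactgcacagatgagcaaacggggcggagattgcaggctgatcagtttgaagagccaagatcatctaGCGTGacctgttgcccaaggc

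The *AADAC* window held neither motif and was AT-rich, with 35.6% G and C. The *FMO4* window (48.4% G and C) held GCGTG once on the opposite strand, read here as CACGC, from 14 to 10 bases before the start. In the *UGT8* window (54.8% G and C) CACGC stood from 124 to 120 and from 44 to 40 bases before the start, and in that of *CES4A* (53.6% G and C) GCGTG stood from 21 to 17 bases before it. GCGTG was in 6 of the 12 windows, which belong to 4 genes (*CES4A*, *CES5A*, *FMO4* and *UGT8*). The second window of *CES4A* held it 6 times and another window of *UGT8* 2 times, while the last of *UGT8* held none. Among all 35116 windows, GCGTG was in 32.2% and TGACNNNGC in 10.9%. Windows of *FMO4*, which was higher, and of *UGT8*, which was lower, both held GCGTG, and any part of it in their signal was not tested. TGACNNNGC was found in 1 of the 12 windows, as GCTTAGTCA on the opposite strand before a start of *CES5A*. A search for TATAAA, added after the other motifs had been counted, found it before 1 start of *FMO1* and before that of *FMO5*, against 10.7% of all windows. These matches describe letters only, and binding was not measured.

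*AADAC* encodes arylacetamide deacetylase, a serine hydrolase of the endoplasmic reticulum that is best known from liver and intestine, where it hydrolyses drugs such as flutamide and phenacetin. Its log2 signal was 7.33, 8.00 and 8.11 on the UM-Cis arrays (without a number, 1 and 2), against 5.65, 5.65 and 6.13 on the UMSCC1 arrays. The lowest UM-Cis array was above the highest UMSCC1 array by more than the spread within either line. The mean was 7.81 ± 0.42 in UM-Cis and 5.81 ± 0.28 in UMSCC1 (SD, n = 3 each), a log2 difference of 2.01 (SE 0.23, 95% interval 1.47 to 2.54, limma adjusted p = 0.00181). Among all genes it ranked 41 in size of increase, and 0.412% of genes had a larger absolute difference. Arrays of the same label differed by 2.35 (array 1), 1.98 (array 2) and 1.68 (without a number), so that the increase was seen in every such pair.

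The relatives and neighbours of *AADAC* were read in the same way, chosen after the values of *AADAC* were known. On the chromosome *AADAC* lies beside *AADACL2*, a related gene, and *AADACP1*, an *AADAC* pseudogene. *AADACP1* gave 7.69, 7.53 and 7.61 on the UM-Cis arrays, against 6.11, 5.55 and 5.84 on the UMSCC1 arrays. Its groups did not overlap either, with means of 7.61 ± 0.08 in UM-Cis and 5.83 ± 0.28 in UMSCC1 and a log2 difference of 1.78 (SE 0.17, adjusted p = 0.00085). *AADACL2* did not pass the test (3.65 ± 0.12 in UM-Cis and 3.59 ± 0.24 in UMSCC1, 0.06, adjusted p = 0.865). The next measured genes on the other side, *SUCNR1* (-0.20, adjusted p = 0.581) and *MBNL1* (-0.11, adjusted p = 0.664), did not pass either. The other relatives on the array, *AADACL3* (5.08 ± 0.02 in UM-Cis and 4.99 ± 0.27 in UMSCC1) and *AADACL4* (3.62 ± 0.21 in UM-Cis and 3.95 ± 0.21 in UMSCC1), overlapped between the lines. How much signal the probe sets of *AADAC* and *AADACP1* take from each other's transcripts was not tested, so the pair cannot be counted as independent measurements.

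**Figure D2:**
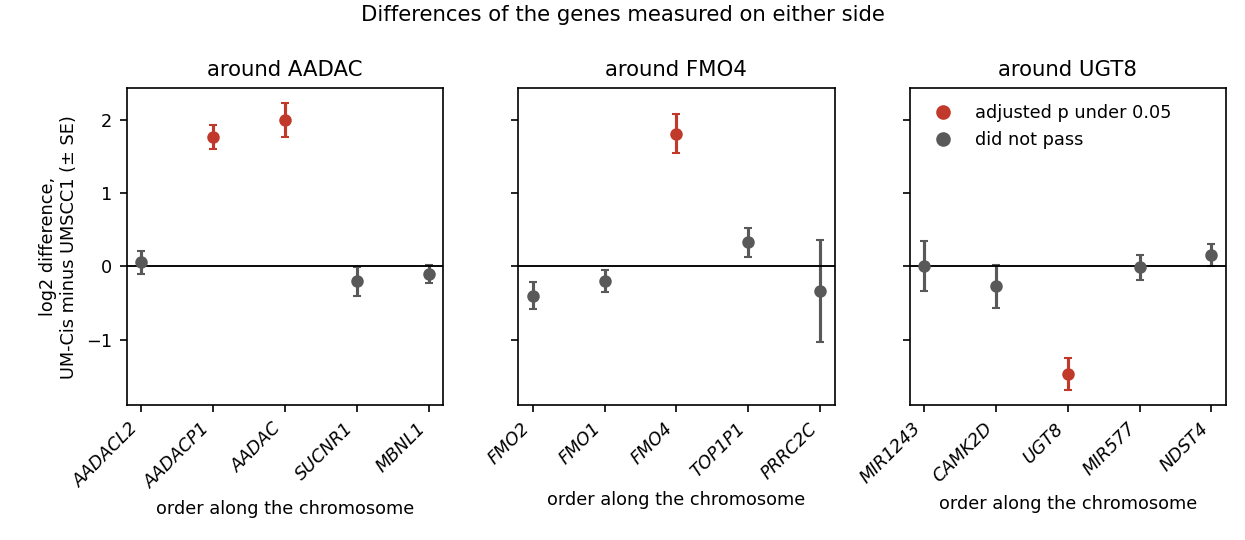
Log2 difference (UM-Cis minus UMSCC1, with its SE) of *AADAC*, *FMO4* and *UGT8* and of 2 measured genes on each side, in their order along the chromosome, which gives no distance. Red points passed an adjusted p under 0.05, and beside the 3 enzyme genes this was so only for the pseudogene *AADACP1* at 1.78.

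The carboxylesterases are serine hydrolases that cleave esters and amides of many drugs. *CES4A*, a member predicted to be secreted and whose substrates are little known, had a log2 signal of 5.69, 6.23 and 6.37 on the UM-Cis arrays, against 3.91, 5.11 and 5.34 on the UMSCC1 arrays. The groups did not overlap, but the UMSCC1 array without a number stood far below the other arrays of its line. The mean was 6.10 ± 0.36 in UM-Cis and 4.79 ± 0.77 in UMSCC1, a log2 difference of 1.31 (SE 0.36, 95% interval 0.48 to 2.14, adjusted p = 0.0568), or 2.48-fold. Same-labelled arrays differed by 1.12 (array 1), 1.03 (array 2) and 1.77 (without a number). With the array label as a replicate block the adjusted p was 0.00572, in a fit that called 9.79% of all genes higher. Leaving out each array in turn gave log2 differences of 0.87 to 1.58 and adjusted p of 0.049 to 0.175, with the lowest difference in the absence of the UMSCC1 array without a number (0.87, adjusted p = 0.0493). The measured genes on either side of *CES4A* did not pass the test, with log2 differences of -0.20 (*CA7*), -0.20 (*RRAD*), 0.24 (*PHAF1*) and -0.36 (*TRADD*).

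*CES1*, the main carboxylesterase of human liver, showed no difference larger than the spread. Its log2 signal was 5.81, 5.34 and 5.75 in UM-Cis, against 5.34, 5.38 and 5.86 in UMSCC1, with means of 5.63 ± 0.26 in UM-Cis and 5.53 ± 0.29 in UMSCC1 and a difference of 0.10 (95% interval -0.34 to 0.55, adjusted p = 0.799). A dimmer probe set of the gene averaged 5.02 ± 0.06 in UM-Cis and 5.15 ± 0.27 in UMSCC1, a difference of -0.13, so that the sign of the difference depended on the probe set. The pseudogenes *CES1P1* (4.83 ± 0.43 in UM-Cis and 5.28 ± 0.19 in UMSCC1) and *CES1P2* (5.83 ± 0.16 in UM-Cis and 5.73 ± 0.23 in UMSCC1) lie next to *CES1*, and signal shared among them was not tested. *CES5A*, known as cauxin in cat urine, had a log2 signal of 3.49, 3.84 and 3.68 in UM-Cis, against 4.36, 4.22 and 3.74 in UMSCC1. The highest UM-Cis array was above the lowest UMSCC1 array, and the difference was -0.44 (SE 0.19, 95% interval -0.87 to -0.0033, adjusted p = 0.199). All *CES5A* values were under the array medians of 4.74 to 4.82, which were taken over all probe sets, with or without a symbol. Of the measured genes that follow *CES5A* on the chromosome, *GNAO1-DT* did not pass (-0.09, adjusted p = 0.796). The next one, *MIR3935*, was higher in UM-Cis (0.92, adjusted p = 0.0191), a call kept in 12 of the 16 alternatives given at the end.

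Flavin-containing monooxygenases use FAD and NADPH to oxidize nitrogen and sulfur atoms of drugs and dietary amines. *FMO4* is a member whose substrates are little known. Its log2 signal was 6.04, 5.51 and 5.68 on the UM-Cis arrays, against 4.52, 3.58 and 3.67 on the UMSCC1 arrays. Every UM-Cis array was above the array medians over all probe sets, and every UMSCC1 array was below them. Among the genes tested alone, the mean of *FMO4* stood at percentile 49.8 in UM-Cis and 14.6 in UMSCC1. The mean was 5.74 ± 0.27 in UM-Cis and 3.93 ± 0.52 in UMSCC1, a log2 difference of 1.82 (SE 0.26, 95% interval 1.21 to 2.42, adjusted p = 0.00463). It ranked 59 among all increases, and 0.601% of genes had a larger absolute difference. Same-labelled arrays differed by 1.93 (array 1), 2.01 (array 2) and 1.52 (without a number).

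The other members of the family did not pass the test, although *FMO1*, *FMO2* and *FMO4* are close neighbours on chromosome 1, and the negative differences of *FMO1* and *FMO5* turned to 0.038 and 0.077 when the arrays were scaled to control genes. *FMO1*, a form of fetal liver and adult kidney, had a log2 signal of 2.88, 2.87 and 3.12 in UM-Cis, against 3.34, 3.21 and 2.91 in UMSCC1 (difference -0.20, 95% interval -0.56 to 0.16, adjusted p = 0.495). *FMO2*, the main form of lung, had 3.48, 2.97 and 3.50 in UM-Cis, against 3.77, 3.51 and 3.87 in UMSCC1. Its UM-Cis arrays were all below the UMSCC1 arrays, the nearest of them narrowly, and the difference of -0.40 (SE 0.18, 95% interval -0.82 to 0.02) had an adjusted p of 0.224. A dimmer probe set of *FMO2* overlapped between the lines, with 3.19 ± 0.36 in UM-Cis and 3.27 ± 0.13 in UMSCC1. *FMO5*, a liver form that oxidizes ketones to esters, gave 4.15, 4.20 and 4.28 in UM-Cis, against 4.27, 4.30 and 4.54 in UMSCC1 (difference -0.16, 95% interval -0.47 to 0.15, adjusted p = 0.518). All values of *FMO1*, *FMO2* and *FMO5* lay under the array medians. Of the measured genes next to *FMO4* that are not members, *TOP1P1* differed by 0.33 (adjusted p = 0.369) and *PRRC2C* by -0.34 (adjusted p = 0.819).

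*UGT8* belongs to the family of glucuronosyltransferases by sequence but transfers galactose to ceramide, the step that makes the galactosylceramide of myelin. Its log2 signal was 7.26, 6.83 and 6.49 on the UM-Cis arrays, against 8.64, 8.26 and 8.09 on the UMSCC1 arrays. No UM-Cis array reached the lowest UMSCC1 array. The mean was 6.86 ± 0.39 in UM-Cis and 8.33 ± 0.28 in UMSCC1, a log2 difference of -1.47 (SE 0.23, 95% interval -1.99 to -0.95, adjusted p = 0.00577). It ranked 85 among all decreases, and 1.36% of genes had a larger absolute difference. Same-labelled arrays differed by -1.43 (array 1), -1.61 (array 2) and -1.38 (without a number), a closer range than for *AADAC* or *FMO4*. The nearest measured protein-coding genes on either side, *CAMK2D* (-0.27, adjusted p = 0.640) and *NDST4* (0.16, adjusted p = 0.575), did not pass the test. As the only sugar transferase among the 12 genes, *UGT8* says nothing of the enzymes that attach glucuronic acid to drugs.

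The N-acetyltransferases *NAT1* and *NAT2* acetylate aromatic amines and hydrazines, *NAT1* in most tissues and *NAT2*, which acts on isoniazid, mainly in liver and gut. *NAT1* gave 4.89, 5.00 and 5.00 in UM-Cis, against 5.23, 5.08 and 4.93 in UMSCC1. These values overlapped, and the interval of the difference (-0.12, 95% interval -0.43 to 0.19, adjusted p = 0.643) leaves out a 2-fold change of the array signal. The values lay close to the array medians and have no detection calls, so a 2-fold change of the transcript is not excluded. With the arrays scaled to control genes the difference of *NAT1* was 0.116. *NAT2* gave 3.83, 2.59 and 3.64 in UM-Cis, against 2.71, 1.88 and 2.36 in UMSCC1. The UM-Cis array 1 lay under the highest UMSCC1 array, so the groups overlapped, and all 6 values were under the array medians. The difference was 1.04 (SE 0.34, 95% interval 0.26 to 1.81, adjusted p = 0.0968), or 2.05-fold. Same-labelled arrays differed by 0.71 (array 1), 1.28 (array 2) and 1.12 (without a number), and with the array label as a replicate block the adjusted p was 0.00679. Leaving out each array in turn gave log2 differences of 0.80 to 1.42 and adjusted p of 0.0284 to 0.28, and *NAT2* passed only without the UM-Cis array 1 (1.42). It was under 2-fold without the UM-Cis array lacking a number (0.80), without the UM-Cis array 2 (0.89) and without the UMSCC1 array 1 (0.82). *PSD3*, the next measured gene after *NAT2* on the chromosome, passed limma's test and was higher in UM-Cis. Its means were 6.04 ± 0.32 in UM-Cis and 5.01 ± 0.31 in UMSCC1 (difference 1.03, limma adjusted p = 0.0195). That call was kept in 13 of the 16 alternatives given at the end. *NAT2* itself, and *NAT1* on its other side, did not pass.

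*ALDH2* encodes the mitochondrial dehydrogenase that clears acetaldehyde, and its same-labelled arrays disagreed in direction, as did those of *CES1*, *FMO1* and *NAT1*. Its log2 signal was 6.22, 5.27 and 5.39 in UM-Cis, against 5.54, 6.05 and 6.06 in UMSCC1. The array without a number was the highest of the UM-Cis arrays and the lowest of the UMSCC1 arrays. Over all arrays the mean was 5.63 ± 0.51 in UM-Cis and 5.89 ± 0.30 in UMSCC1, and the difference of -0.26 (SE 0.27, 95% interval -0.87 to 0.35) had an adjusted p of 0.611. Arrays 1 and 2 differed by -0.78 and -0.67, and those without a number by 0.67. Using the numbered arrays alone, a choice made after the data were seen, the difference was -0.73 with an adjusted p of 0.00974, in a fit that called 8.78% of all genes lower. Over all genes the arrays without a number stood apart in both lines, on a second principal component with 28.6% of the variance, while the first, with 51.5%, separated the lines. The part of a batch in the *ALDH2* values was not tested, and no source gives one.

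**Figure D3:**
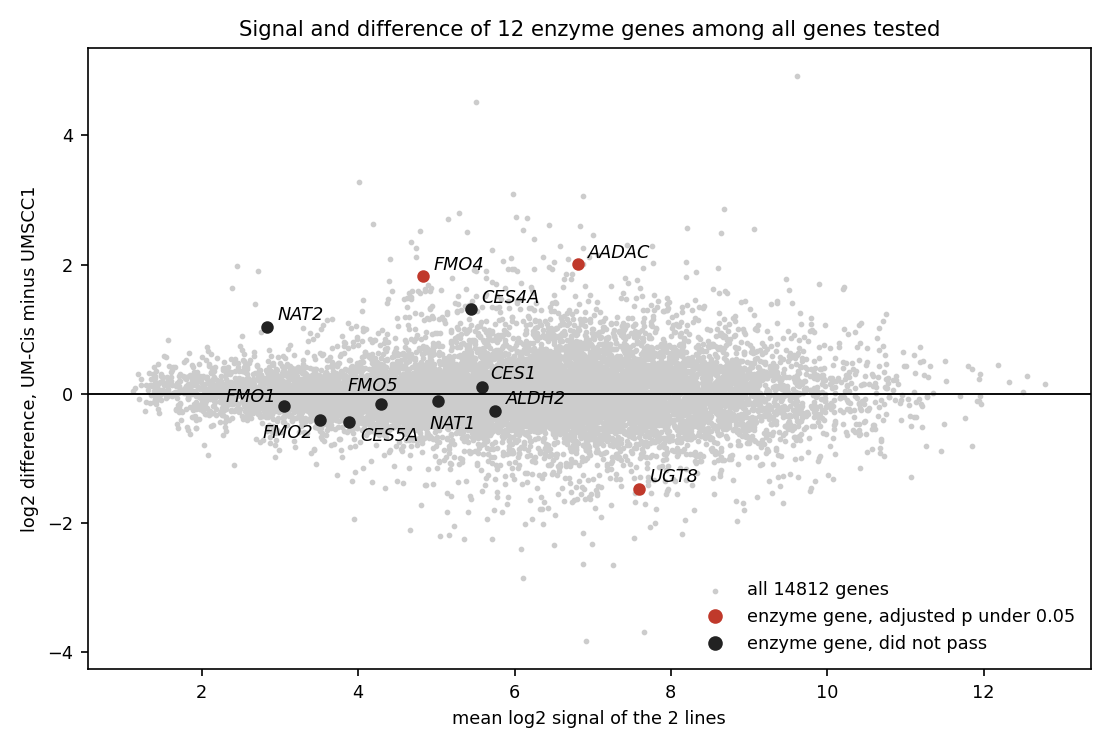
Log2 difference (UM-Cis minus UMSCC1) against the mean log2 signal of both lines for all 14812 genes in grey, with the 12 enzyme genes marked in red where the adjusted p was under 0.05. *AADAC*, *FMO4* and *UGT8* lie near the edge of the cloud, and most of the others lie within it.

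Other genes of drug metabolism were read from lists, whose counts stand beside 5.91% of all genes called higher, 4.60% called lower and a median log2 difference of -0.036 over all genes. Among 43 listed oxidoreductases, hydrolases and transferases outside the families above, 29 were measured, of which 5 were called higher in UM-Cis, 4 were called lower and 20 did not pass, with a median log2 difference of -0.088. *AOX1*, aldehyde oxidase, which oxidizes heterocyclic drugs, gave 7.90, 7.15 and 7.22 in UM-Cis, against 5.60, 5.43 and 5.38 in UMSCC1. These did not overlap, and the difference was 1.96 (SE 0.21, adjusted p = 0.00137), about the size of that of *AADAC*. *PON3*, a lactonase (1.20, adjusted p = 0.011), *NNMT*, which methylates nicotinamide (0.90, adjusted p = 0.0124), *MAOA*, which oxidizes monoamines (0.77, adjusted p = 0.00873), and *ACSM3*, an acyl-CoA synthetase (0.67, adjusted p = 0.0324), were higher as well. *TPMT*, which methylates thiopurine drugs, gave 7.31, 7.27 and 7.10 in UM-Cis, against 8.52, 8.82 and 8.78 in UMSCC1. It had the largest decrease on the list (-1.48, SE 0.14, adjusted p = 0.000877), beside *XDH*, xanthine dehydrogenase (-1.41, adjusted p = 0.0202), *CBR3*, a carbonyl reductase (-1.04, adjusted p = 0.00174), and *EPHX3*, an epoxide hydrolase (-0.65, adjusted p = 0.0459).

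**Figure D4:**
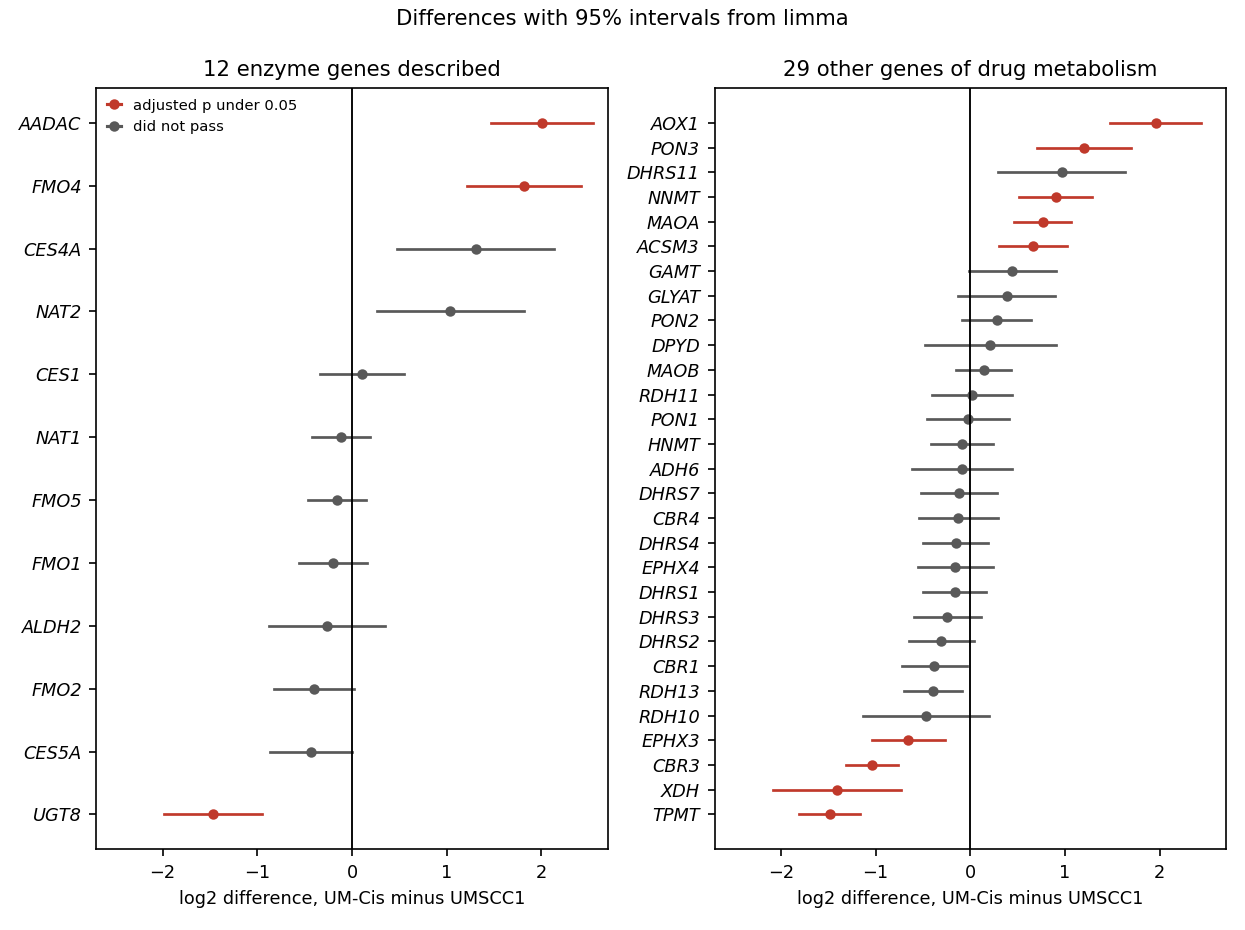
Log2 differences (UM-Cis minus UMSCC1) with 95% intervals from limma, for the 12 enzyme genes at left and 29 other measured genes of drug metabolism at right, each ordered by size. In both panels genes that passed an adjusted p under 0.05 (red) lie on either side of 0, from 2.01 (*AADAC*) to -1.47 (*UGT8*) at left and from 1.96 (*AOX1*) to -1.48 (*TPMT*) at right.

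A list of cytochrome P450 partners, with genes of heme turnover and cofactor supply, was also mixed. Cytochrome P450s and sulfotransferases themselves were not analysed here. Of 21 listed, 14 were measured, 4 were higher, 2 lower and 8 did not pass, with a median of 0.180. *PAPSS2*, which makes the sulfate donor PAPS, was higher (8.42, 8.10 and 8.35 in UM-Cis, against 6.99, 7.12 and 6.89 in UMSCC1, difference 1.29, SE 0.14, adjusted p = 0.00151). Its relative *PAPSS1*, with the same activity, was lower (7.00, 6.15 and 6.38 in UM-Cis, against 7.56, 7.35 and 7.28 in UMSCC1, difference -0.89, SE 0.22, adjusted p = 0.0384). The pair of cytochrome b5 genes was split likewise, with *CYB5A*, the microsomal form, higher (0.91, adjusted p = 0.00924) and *CYB5B*, the mitochondrial form, lower (-0.56, adjusted p = 0.0372). The lower calls of *PAPSS1* and *CYB5B* were lost in 8 and 7 of the 16 alternatives given at the end. *PGRMC2*, a heme-binding membrane protein (0.91, adjusted p = 0.0133), and *HMOX1*, heme oxygenase (0.48, adjusted p = 0.0417), were higher.

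Among 30 listed receptors and transcription factors that sense foreign compounds, 12 were measured, of which 3 were higher, 1 was lower and 8 did not pass, with a median of 0.403. *NFE2L1* (0.84, adjusted p = 0.00483), a relative of NRF2, *MAFF* (0.91, adjusted p = 0.015), a small MAF partner, and *TIPARP* (0.73, adjusted p = 0.0258), a target and repressor of the aryl hydrocarbon receptor, were higher. *KEAP1*, the adaptor through which NRF2 is degraded, was lower (-0.68, adjusted p = 0.0383), a call kept in 8 of the 16 alternatives given at the end. *NFE2L2*, the gene of NRF2, differed by 0.48 (adjusted p = 0.11) and *AHR* by -0.23 (adjusted p = 0.493), and neither passed. Of 29 listed NRF2 targets, which share *HMOX1*, *CBR1*, *CBR3* and *UGDH* with the other lists, 14 were measured. *TXNRD1*, thioredoxin reductase (0.99, adjusted p = 0.00258), and *HMOX1* were higher, *CBR3* was lower and 11 did not pass, with a median of 0.051.

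The cell type was checked by markers, given as the mean log2 signal of each list on an array. The squamous list (9 of 14 genes measured) had 7.02 to 7.13 in UM-Cis and 7.37 to 7.58 in UMSCC1, with 6 genes above the array median on all arrays, and *KRT5*, a basal keratin, was lower in UM-Cis (-1.94, adjusted p = 0.0091). Several of the 12 genes are known from liver. The hepatocyte list (7 of 8 measured) had 4.37 to 4.56 in UM-Cis and 4.43 to 4.62 in UMSCC1. None of the 7 passed the test, and 2 of them, *APOA1* and *TTR*, were above the array median on all arrays. *ALB* lay at 4.31 to 4.67 in UM-Cis and 4.33 to 4.66 in UMSCC1. The fibroblast (2 of 6 measured), leukocyte (2 of 5) and endothelial (2 of 4) markers were under the array median on at least 1 array for every gene, and of these *CD14* was lower in UM-Cis (-0.53, adjusted p = 0.049). None of the 6 measured of 15 listed control genes passed the test, and their median log2 difference was -0.298, lower than that of all genes. When each array was shifted so that the control genes had an equal median, the median of all genes moved by 0.237, *AADAC*, *FMO4* and *UGT8* kept their calls, and the directions of *FMO1*, *FMO5* and *NAT1* turned.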

How the data were processed

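Total RNA of UM-Cis and UMSCC1 was read on 3 arrays per line (Affymetrix Human Gene 2.0 ST), and the authors deposited log2 signals per probe set. Quantile normalization is named in the paper and RMA in the submitters' processing notes. Versions were not given in the sources used here. Values lay between 0.66 and 13.6, without detection calls, so it is not known whether a dim gene was expressed. Separately, the 3 arrays per line limit the precision.

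Of 44629 probe sets, 15835 had a gene symbol in the platform annotation, all with identifiers in a RefSeq table of GRCh38.p14, and 28794 had none here. The probe set with the highest mean stood for each of 14812 genes (651 had more than 1, among them *CES1* and *FMO2*). UM-Cis and UMSCC1 were compared by limma 3.58.1 in R 4.3.3 (lmFit, eBayes, two-sided) on all genes after a check on simulated data, and p was adjusted by Benjamini-Hochberg (threshold 0.05). The criterion of the methods (2-fold, unadjusted p under 0.05) was counted as well.

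The members and lists were chosen with earlier results of these data known. The naming rule took genes that passed either criterion and the 12 brightest members, which covers all 12, and list genes that passed. Neighbours, pseudogenes, relatives, *NFE2L2*, *AHR*, *ALB*, *APOA1*, *TTR* and the motif TATAAA were added after values were seen. Deviations of same-labelled arrays from the means of their lines correlated by 0.505 (without a number), 0.237 (array 1) and 0.357 (array 2), each above 0.1, and on this basis the arrays were treated as paired by label in the replicate block. Across labels, arrays 1 and 2 of different lines correlated by 0.265 and 0.233, so the data set apart the arrays without a number and do not tell label 1 from label 2. Figures were drawn with matplotlib 3.10.9.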

Additional observations from a re-analysis of the deposited data

How the results depend on the processing

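The values of the 12 genes were recomputed under 16 alternatives, of which 1, the numbered arrays alone, was added after the data were seen. For *CES5A*, *FMO1*, *FMO2*, *FMO5* and *NAT2* the filter on dim probe sets left 15. *AADAC*, *FMO4* and *UGT8* kept their calls in 15 of 16, losing them in the methods' t-test with the same adjustment, which called 0 of the 12 genes higher and 0 lower and put 2 of them at least 2-fold higher with an unadjusted p under 0.05. There the unadjusted p was 0.00234 (*AADAC*), 0.00579 (*FMO4*) and 0.00601 (*UGT8*), and the adjusted p 0.0529, 0.0783 and 0.0793 in that order, with the same differences as in limma. Their differences ranged over all alternatives from 1.86 to 2.25, from 1.65 to 2.12 and from -1.67 to -1.23. The filter on dim probe sets used the mean over both lines. *FMO4* (5.74 in UM-Cis, 3.93 in UMSCC1) passed that filter only through its signal in UM-Cis, so its call there adds no support.

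With the replicate block 4 genes were called higher, *CES4A* and *NAT2* being added, and the block changed no other call of the 12 genes. Over all genes the block called 9.79% higher, against 5.91% without it, and 8.40% lower, against 4.60%. The control-gene scaling also called 4 higher, and there *FMO1* (0.038), *FMO5* (0.077) and *NAT1* (0.116) turned positive. The median difference of the 12 genes was 0.096 in that scaling and 0.104 over the genes left by a filter on dim probe sets. *CES4A* passed in 8 of 16 alternatives (adjusted p from 0.00421 to 0.242) and *NAT2* in 3 of 15 (0.00679 to 0.3). With the numbered arrays alone 2 genes were called lower, *ALDH2* being added, where 8.78% of all genes were called lower, and *CES1* was -0.077. With the mean of its probe sets *CES1* was -0.013. Leaving out 1 array at a time gave 2 to 3 genes called higher, 1 called lower, 3 to 4 at least 2-fold higher and 1 at least 2-fold lower. The filter on dim probe sets kept 7 of the 12 genes and 10492 in all. Signal over background is not known for any of these genes.

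The 25 other genes that passed, from the lists and among the neighbours of the 12, were put through the same alternatives after the data were seen. None of the 25 turned direction, and 7 kept their call throughout (*AADACP1*, *AOX1*, *MAOA*, *NFE2L1*, *PAPSS2*, *TPMT* and *TXNRD1*). Calls were kept least often for *CD14* (4 of 15), then for *EPHX3*, *HMOX1*, *KEAP1* and *PAPSS1* (8 of 16 each). Next were *CYB5B* and *TIPARP* (9 of 16 each). The methods' t-test lost 16 calls, leaving out 1 array 4 to 14, adjustment over all probe sets 8 and the control-gene scaling 7. Calls higher ranged from 2 to 8 and lower from 2 to 4 on the list of other enzymes, whose median ran from -0.165 to 0.148. They ranged from 2 to 4 and 0 to 3 for cofactor supply, from 1 to 5 and 0 to 1 for the sensors, and from 1 to 4 and 0 to 2 for the NRF2 targets.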
